A study of Mus musculus with 48 samples.

Results

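Type I interferon-stimulated genes are genes whose transcription rises after type I interferon acts on a cell. The 45 genes described here, of 55357 in the count table, form a named list of known targets, and all 45 passed the filter on low counts, which left 21390 genes for testing. Their level was measured by poly-A RNA sequencing of dorsal dentate gyrus in 24 wild-type C57BL/6J mice that received kainate or saline by injection into the hippocampus of 1 side. Each mouse gave a library from the injected side, the epileptogenic zone (EZ), and a library from the opposite side, the peri-ictal zone (PIZ), so that 48 libraries fell into 12 groups of 4 by side, injection and day 3, 7 or 14. Kainate is an excitatory glutamate receptor agonist that brings on status epilepticus, a prolonged seizure, and saline-injected mice underwent the same procedure without it. Their age was 6 to 8 weeks by the series text but 8 to 10 weeks by the methods, with 2 male and 2 female mice in each group, and only kainate mice with an observed behavioural seizure within hours of the injection were used by the authors. The mice carried no engineered allele, and the needle and injected fluid were common to kainate and saline mice, on the EZ side only. The kainate mice were numbered 30, 38, 42 and 44 at day 3, 21, 23, 26 and 35 on day 7, and 14, 27, 36 and 40 at day 14, and the saline mice 18, 29, 37 and 41, then 20, 33, 34 and 89, then 24, 28, 31 and 39. Wherever 4 values are listed for a group, they follow this order.

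Type I interferons bind a receptor made of IFNAR1 and IFNAR2, whose attached kinases JAK1 and TYK2 phosphorylate STAT2 among other factors. STAT2 and IRF9 are part of the complex ISGF3, which binds the interferon-stimulated response element (ISRE) near the start of target genes, whereas interferon gamma acts through the gamma-activated site (GAS). The products sense foreign nucleic acid, block translation and replication, attach the ubiquitin-like protein ISG15 to other proteins, or limit the response itself, and in the brain microglia, astrocytes, endothelium and neurons can all express them.

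In the EZ, 43 of the 45 genes were upregulated by kainate at day 3, 44 at day 7 and 34 at day 14, whereas in the PIZ 35 were upregulated at day 3, 4 at day 7 and 0 at day 14. No gene of the list was called downregulated in any of these 6 comparisons, where 8.61%, 11.9% and 0.0374% of all genes were in the EZ and 1.57%, 0.0514% and 0.00468% in the PIZ at the 3 days. A gene was called at a Benjamini-Hochberg adjusted p under 0.01, over all genes tested, with a fold change over 1.5 in the edgeR quasi-likelihood fit. The median log2 fold change of the 45 genes was 2.52, 3.54 and 2.02 in the EZ and 1.76, 1.57 and 0.24 in the PIZ at the 3 days in order. Over all 21390 genes, 16.1%, 20.6% and 2.32% were upregulated in the EZ, 7.12%, 0.15% and 0.00935% in the PIZ, and the median log2 fold change of all genes at EZ day 7 was 0.0109. The day 14 count in the EZ was 0 without kainate mouse 27, with a median log2 fold change of 0.875, and 4 to 11 without any 1 saline mouse, with medians of 1.94 to 2.25. The 4 calls of PIZ day 7 were lost when any 1 of 5 mice was left out, with medians of 1.46 to 1.66.

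Promoter sequences are shown because the genes differ in whether the ISRE core, written as GAAA, any 2 bases and GAAA again, lies near their start. Both strands were searched from 250 bases before to 50 bases after the start of the canonical transcript of each gene, in the GRCm39 genome with the Gencode M39 annotation. The core was found in 19 of the 45 windows (42.2%) and in 829 of 21627 windows of protein-coding genes in the table (3.83%). The GAS pattern TTCNNNGAA, with N for any base, was found in 8 of the 45 (17.8%) and in 1914 of 21627 (8.85%), and none of the stretches printed here holds both patterns. Each stretch below is the 160 bases that end just before the start site, 5′ to 3′ on the strand of the gene, with matches to either pattern in capitals. Isg15 is shown for its overlapping cores, Ifit1, Ifit3 and Ifit3b for neighbouring relatives, Usp18 and Ddx60 for cores close to the start, Oas3 as the gene with the highest fold change, Rsad2 and Cmpk2 as neighbours that behaved differently, and Irf1 for its GAS match.
Isg15, chr4:156285304-156285463, minus strand: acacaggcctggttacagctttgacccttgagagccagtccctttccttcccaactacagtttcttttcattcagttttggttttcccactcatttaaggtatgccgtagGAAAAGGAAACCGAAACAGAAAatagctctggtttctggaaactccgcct
Ifit1, chr19:34618111-34618270, plus strand: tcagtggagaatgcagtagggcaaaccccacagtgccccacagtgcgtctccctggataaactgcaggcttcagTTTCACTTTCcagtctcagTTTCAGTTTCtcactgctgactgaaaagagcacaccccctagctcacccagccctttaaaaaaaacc
Ifit3, chr19:34560739-34560898, plus strand: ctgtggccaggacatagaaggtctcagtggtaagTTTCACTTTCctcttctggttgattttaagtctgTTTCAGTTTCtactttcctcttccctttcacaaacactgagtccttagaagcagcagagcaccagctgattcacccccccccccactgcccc
Ifit3b, chr19:34585168-34585327, plus strand: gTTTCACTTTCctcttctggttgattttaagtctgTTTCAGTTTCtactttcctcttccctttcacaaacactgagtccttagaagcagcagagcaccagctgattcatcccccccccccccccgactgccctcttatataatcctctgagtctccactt
Usp18, chr6:121222697-121222856, plus strand: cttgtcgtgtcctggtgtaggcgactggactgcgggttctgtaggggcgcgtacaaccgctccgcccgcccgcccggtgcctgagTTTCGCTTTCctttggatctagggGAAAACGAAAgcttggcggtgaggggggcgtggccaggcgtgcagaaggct
Ddx60, chr8:62380963-62381122, plus strand: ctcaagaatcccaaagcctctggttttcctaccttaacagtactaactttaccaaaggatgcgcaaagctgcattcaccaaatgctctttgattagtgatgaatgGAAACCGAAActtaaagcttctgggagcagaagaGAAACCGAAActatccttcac
Oas3, chr5:120915730-120915889, minus strand: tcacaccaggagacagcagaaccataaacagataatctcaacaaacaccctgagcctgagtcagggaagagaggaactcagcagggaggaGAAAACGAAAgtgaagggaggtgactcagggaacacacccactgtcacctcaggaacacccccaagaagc
Rsad2, chr12:26506452-26506611, minus strand: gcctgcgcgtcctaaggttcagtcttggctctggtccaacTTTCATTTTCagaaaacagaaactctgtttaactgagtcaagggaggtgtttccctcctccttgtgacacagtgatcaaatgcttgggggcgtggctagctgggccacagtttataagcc
Cmpk2, chr12:26519043-26519202, plus strand: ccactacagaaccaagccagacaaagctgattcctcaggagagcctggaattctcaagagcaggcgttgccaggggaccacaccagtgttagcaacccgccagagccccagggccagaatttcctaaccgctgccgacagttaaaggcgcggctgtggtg
Irf1, chr11:53660681-53660840, plus strand: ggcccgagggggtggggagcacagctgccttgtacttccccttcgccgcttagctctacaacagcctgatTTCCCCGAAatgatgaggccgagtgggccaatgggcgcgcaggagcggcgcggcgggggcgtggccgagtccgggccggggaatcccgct

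In Isg15, 3 overlapping cores began 50, 44 and 38 bases before the start. Ifit3 and Ifit3b each carried a pair of cores, which began 126 and 92 bases before the start in Ifit3 and 159 and 125 bases before it in Ifit3b. In Rsad2 a core began 120 bases before the start, and no core was found in the Cmpk2 window. Of the genes with a core, log2 fold changes at EZ day 7 ran from 1.46 to 6.94 with a median of 3.83, and of the 26 without one from -0.26 to 6.57 with a median of 3.10, so that the ranges overlapped widely. The letters were absent from the windows of Ifi27l2a, Oasl1, Mx1 and Irf7, which were among the 7 genes with the highest fold change, and this says only that the core does not stand in this window.

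**Figure D1:**
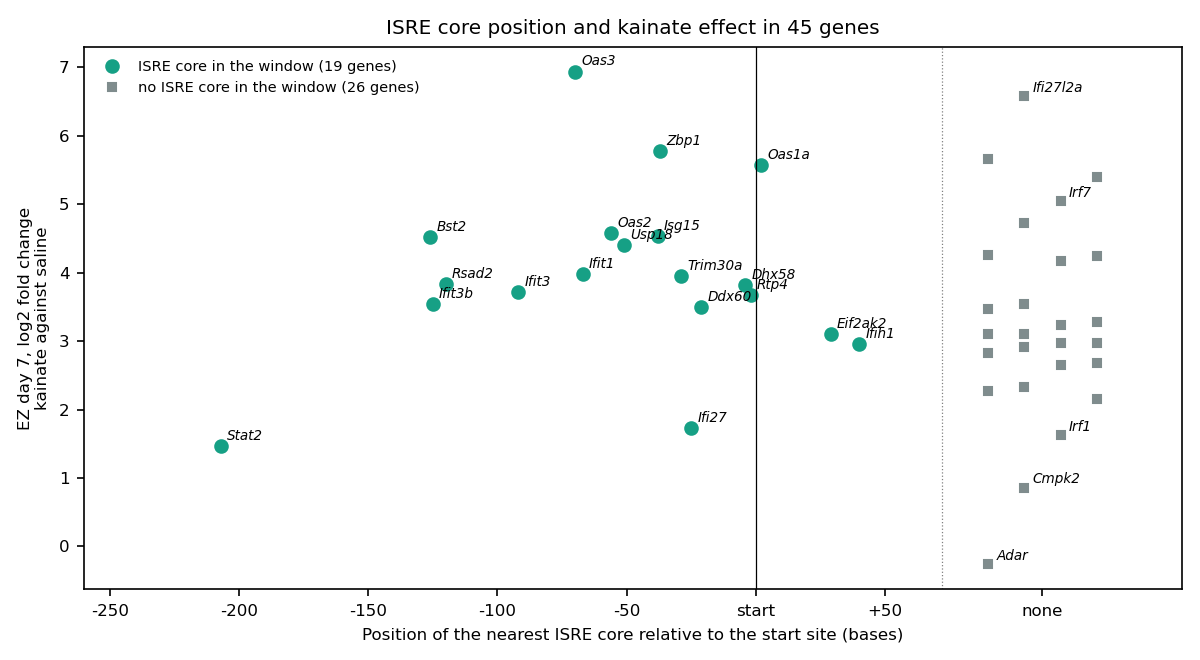
Each point is 1 of 45 genes, with the log2 fold change of kainate against saline in the EZ at day 7 on the vertical axis and, on the horizontal axis, the first base of the ISRE core nearest to the start site in bases, negative before the start (grey squares at the right have no core in the window and are spread sideways only to separate them). The 19 genes with a core and the 26 without one overlap over most of the range of fold changes, and the 3 lowest fold changes among genes without a core are those of Adar, Cmpk2 and Irf1.

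Library totals lay between 17762656 and 25712975 counts (median 22108562), and 3 counts corresponded to 0.117 to 0.169 CPM, the count scaled to the size of its library. Values below are TMM-scaled CPM in single libraries unless they are called log2 fold changes. Prox1, a defining marker of dentate granule neurons, had a mean level of log2 CPM 7.9, and its log2 fold changes in the EZ were -0.12, -0.30 and -0.16 at the 3 days, none called. Other granule neuron markers fell there (Dsp and Calb1 at day 3, Calb1 and Rbfox3 at day 7), and the summed level of the 5 markers in the EZ was 395.6 to 725.5 CPM with kainate and 844.5 to 978 with saline at day 3, without overlap. At EZ day 7 it was 178 and 277 CPM in kainate mice 21 and 35, 868 and 793 in mice 23 and 26, and 756 to 1072 with saline, and the part of this in the results was not tested. The mitochondrial share of counts was 5.01% to 5.88% in the kainate EZ and 7.14% to 7.49% in the saline EZ at day 3, 4.89% to 8.41% and 6.99% to 7.64% at day 7, and overlapped between kainate and saline at EZ day 14 and at each day in the PIZ, and its part in the results was not tested. Of 5 CA pyramidal neuron markers 4 fell at EZ day 3 and all 5 at EZ day 7, and of 10 microglia markers 7, 10 and 7 rose in the EZ at the 3 days. Because these are bulk samples, more cells of a type and more RNA per cell cannot be told apart.

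**Figure D2:**
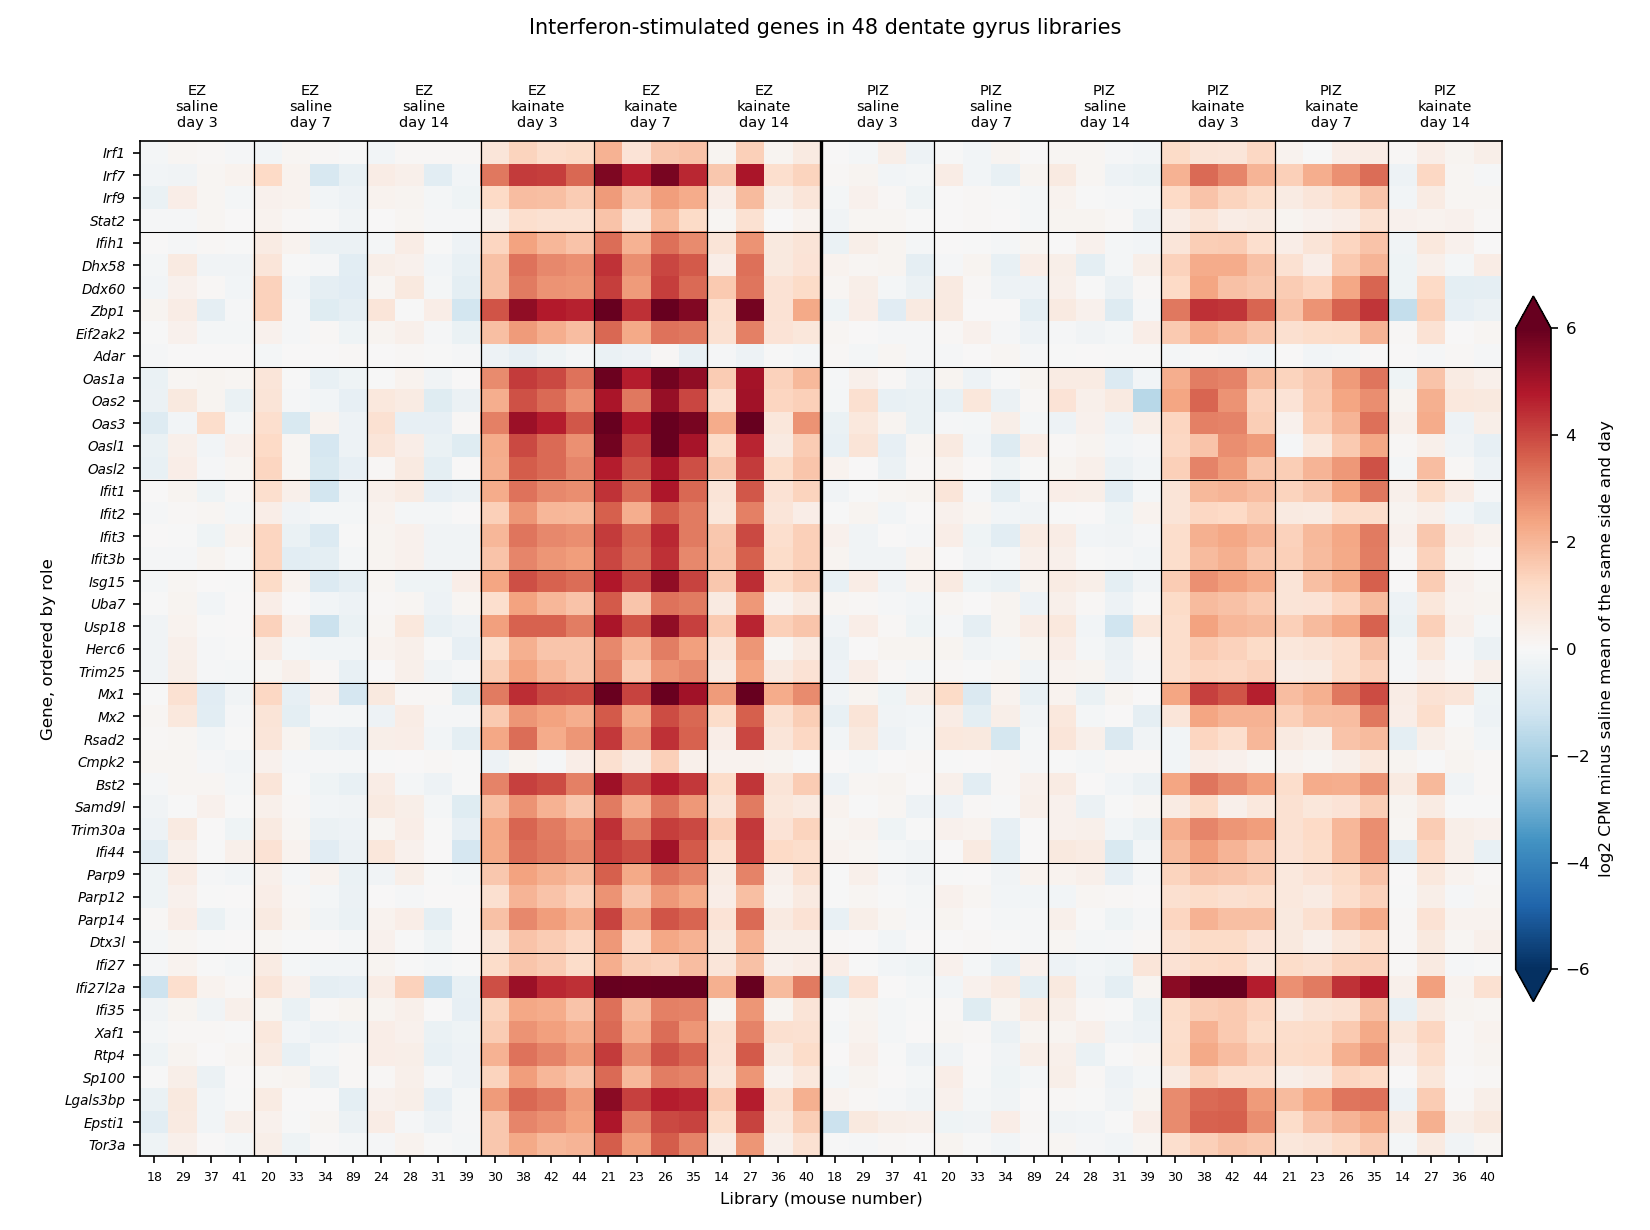
Rows are the 45 genes ordered by role and columns are the 48 libraries with their mouse numbers, and colour gives log2 CPM minus the mean of the 4 saline libraries of the same side and day, with the scale ending 6 units to either side of 0. Kainate columns are red in the EZ at days 3 and 7 and in the PIZ at days 3 and 7, mouse 27 stands out at EZ day 14, and the Adar and Cmpk2 rows stay pale in nearly all libraries.

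The transcription factors of the pathway differed in how far they moved. Irf7, which drives a second wave of interferon and target transcription, was at 24.8, 50.7, 48.5 and 30.4 CPM in the kainate EZ at day 3 and at 2.43, 2.296, 2.95 and 3.17 CPM in saline. At day 7 its kainate EZ values were 157, 84.8, 170.2 and 75.8 CPM against 7.298, 3.69, 1.6 and 2.26 in saline, and at day 14 they were 7.66, 75.5, 5.002 and 6.22 against 3.36, 2.997, 1.53 and 2.17. No kainate library overlapped saline at these 3 days, and mouse 27 stood about as high at day 14 as the lowest mouse of day 7. The log2 fold changes were 3.83 ± 0.6 (SE, n = 4), adjusted p = 3.8e-06, then 5.04 ± 0.62 (SE, n = 4), adjusted p = 4.31e-08, then 3.23 ± 0.6 (SE, n = 4), adjusted p = 0.00105. In the PIZ, Irf7 was at 8.68, 21.8, 15.7 and 8.55 CPM at day 3 against 2.13, 2.28, 1.78 and 1.87 in saline. PIZ values at day 7 were 5.61, 9.35, 13.9 and 21.6 against 2.74, 1.76, 1.45 and 2.28, and at day 14 1.59, 4.78, 2.13 and 1.89 against 2.899, 2.17, 1.59 and 1.47. The groups were apart at days 3 and 7 and overlapped at day 14, and only day 3 of these passed the test (2.76 ± 0.6 (SE, n = 4), adjusted p = 0.000939; day 7, 2.61 ± 0.61 (SE, n = 4), adjusted p = 0.02).

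Stat2, the partner of IRF9 in ISGF3, started from a level of about 28.1 CPM over the 24 saline libraries and moved less than most of the list. Its EZ values were 37.9, 58.6, 54.8 and 55.02 CPM at day 3 against 27.8, 28.4, 31.7 and 30.1 in saline. They were 93.4, 47.1, 109 and 63.5 at day 7 against 32.4, 29.4, 27.7 and 24.01, and 31.2, 54.9, 29.1 and 33.2 at day 14 against 29.4, 31.1, 27.7 and 27.7. The groups were apart at days 3 and 7 but overlapped at day 14, and the log2 fold changes were 0.81 ± 0.18 (SE, n = 4), adjusted p = 0.00041 and 1.46 ± 0.18 (SE, n = 4), adjusted p = 5.6e-08 at the first 2 days. In the PIZ, Stat2 was at 37.6, 46.5, 37.5 and 39.6 CPM at day 3 against 23.8, 30.1, 29.3 and 26.9 in saline, at 31.4, 33.3, 37.02 and 52.99 at day 7 against 28.1, 29.8, 28.4 and 26.01, and at 31.5, 30.4, 31.3 and 27.6 at day 14 against 28.7, 29.3, 27.1 and 20.02. None of these 3 PIZ comparisons passed the call, although the kainate values lay above saline at days 3 and 7.

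Irf9, the DNA-binding part of ISGF3, was at 31.4, 49.01, 47.3 and 39.3 CPM in the kainate EZ at day 3 and 10.4, 17.6, 14.7 and 12.5 in saline. At day 7 these values were 65.4, 36.1, 62.4 and 52.6 and 13.3, 12.8, 9.75 and 8.85, and at day 14 14.3, 41.6, 13.8 and 18.1 and 12.5, 12.3, 10.2 and 9.003. It rose in the EZ at days 3 and 7, with log2 fold changes of 1.6 ± 0.25 (SE, n = 4), adjusted p = 4.11e-06 and 2.27 ± 0.26 (SE, n = 4), adjusted p = 2.39e-08, and its day 14 value of 1.0 ± 0.25 (SE, n = 4), adjusted p = 0.012, did not pass. In the PIZ, Irf9 was at 24.9, 35.8, 27.2 and 22.98 CPM against 9.98, 13.02, 11.3 and 9.02 at day 3, at 14.3, 16.9, 21.7 and 32.5 against 10.2, 10.6, 10.02 and 9.41 at day 7, and at 8.84, 13.8, 10.5 and 10.4 against 11.2, 9.59, 9.297 and 9.06 at day 14. Only PIZ day 3 passed (1.36 ± 0.25 (SE, n = 4), adjusted p = 0.000166). Irf1, a factor induced by interferons and by inflammatory signals, had log2 fold changes of 1.09 ± 0.2 (SE, n = 4) and 1.63 ± 0.21 (SE, n = 4) in the EZ at days 3 and 7 and of 0.97 ± 0.2 (SE, n = 4) in the PIZ at day 3, all 3 called.

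Among 6 sensors of RNA and DNA, 5 rose in the EZ at days 3 and 7 and in the PIZ at day 3, and the exception was Adar. Adar encodes the enzyme that edits adenosine to inosine in double-stranded RNA, and its long isoform is interferon-inducible. It was the most abundant gene of the list per length, with 22.1 CPM per kilobase over the saline libraries. Adar was at 139.9, 126, 147 and 159.8 CPM in the kainate EZ at day 3 and 166, 176, 180.0 and 178 in saline. At day 7 the values were 134, 143, 184 and 129 against 164, 179, 181 and 183, and at day 14 169, 145, 174 and 163 against 179.8, 188, 176 and 172. All kainate libraries were lower than saline at day 3, whereas at day 7 mouse 26 lay above all saline libraries. The log2 fold changes were -0.29 ± 0.08 (SE, n = 4), adjusted p = 0.00266, and -0.26 ± 0.08 (SE, n = 4), adjusted p = 0.00475, below the 1.5-fold limit, so neither was called. Adar in the PIZ was at 171, 186, 175 and 167 CPM against 197, 173, 202 and 176 at day 3, 184, 164, 167 and 185 against 174, 186, 196 and 174 at day 7, and 185, 171, 186 and 173 against 178, 183, 178 and 179 at day 14. Counts are per gene, so that the isoforms of Adar were not separated.

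Eif2ak2, which encodes the double-stranded RNA-activated kinase PKR that halts translation, was at 31.7, 52.8, 41.1 and 32.9 CPM in the kainate EZ at day 3 against 8.74, 10.9, 8.21 and 8.43. At day 7 it was at 84.6, 37.9, 74.5 and 68.9 against 9.29, 7.38, 7.95 and 6.403, and at day 14 at 11.4, 50.5, 10.7 and 9.82 against 6.92, 7.59, 5.76 and 4.57. Every kainate library lay above every saline library at these days, with mouse 27 far above the other 3 at day 14, and the log2 fold changes were 2.13 ± 0.34 (SE, n = 4), 3.1 ± 0.35 (SE, n = 4) and 1.73 ± 0.34 (SE, n = 4). In the PIZ, Eif2ak2 was at 18.8, 29.2, 25.2 and 19.7 CPM against 6.73, 6.42, 5.89 and 5.92 at day 3, 11.1, 12.5, 12.7 and 23.7 against 6.08, 6.95, 5.401 and 4.66 at day 7, and 6.39, 11.2, 6.15 and 6.72 against 5.75, 5.34, 5.72 and 7.98 at day 14. It rose at PIZ day 3 (1.9 ± 0.34 (SE, n = 4), adjusted p = 9.75e-05). Zbp1, a sensor of left-handed nucleic acid that can start necroptosis, had a log2 fold change of 5.78 ± 0.8 (SE, n = 4), adjusted p = 2.36e-07 at EZ day 7 from 0.22 CPM over the saline libraries. Ifih1, Dhx58 and Ddx60, helicases of the RIG-I-like family or related to it, had values of 2.95 ± 0.35 (SE, n = 4), 3.82 ± 0.48 (SE, n = 4) and 3.49 ± 0.51 (SE, n = 4) there.

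The OAS family makes 2-5A, the activator of RNase L, or consists of relatives of those enzymes, and all 5 genes rose in the EZ at each day. Oas3 had the highest log2 fold change of the list at EZ day 7, 6.94 ± 0.99 (SE, n = 4), adjusted p = 3.6e-07. It was at 15.5, 4.69, 21.3 and 8.63 CPM in kainate and at 0.255, 0, 0.103 and 0.0471 in saline, from 5, 0, 2 and 1 counts, so that 3 of the 4 saline libraries lay under the floor of 3 counts. The size of this fold change and its first rank are therefore uncertain and rest on the kainate libraries. At day 3 Oas3 was at 1.15, 5.36, 3.95 and 1.94 against 0, 0.04502, 0.231 and 0.0487, and at day 14 at 0.504, 9.29, 0.112 and 0.752 against 0.148, 0, 0 and 0.0452. Kainate and saline were apart at days 3 and 7, and mouse 36 lay among the saline values at day 14. PIZ values of Oas3 were 0.205, 0.889, 0.859 and 0.2398 against 0, 0.0972, 0.0433 and 0 at day 3, 0.0905, 0.327, 0.543 and 1.44 against 0.0548, 0.0504, 0.104 and 0.0495 at day 7, and 0.0453, 0.43, 0 and 0.0525 against 0, 0.0417, 0 and 0.04896 at day 14, and none of these passed the call.

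Oasl2, an OAS-like member of the family, was the most abundant of the 5 per length in saline, at 0.655 CPM per kilobase. Oasl2 was at 21.1, 56.97, 48.5 and 35.4 CPM in the kainate EZ at day 3 against 3.27, 5.99, 4.29 and 4.97. It was at 132, 70.8, 150.1 and 73.2 at day 7 against 12.3, 5.43, 2.53 and 3.44, and at 11.2, 67.4, 7.92 and 11.6 at day 14 against 3.81, 5.25, 2.36 and 3.71. The saline library of mouse 20 stood above its group at day 7 but below all kainate libraries of that day. In the PIZ, Oasl2 was at 10.2, 29.8, 21.9 and 11.8 CPM against 4.32, 3.79, 2.86 and 3.87 at day 3 and at 9.597, 14.4, 21.3 and 49.6 against 3.999, 3.48, 2.804 and 3.37 at day 7. At PIZ day 14 the values were 3.26, 12.8, 3.76 and 2.89 against 4.03, 4.42, 2.75 and 3.18. Oasl2 was called in 5 of the 6 comparisons, PIZ day 7 included (2.79 ± 0.57 (SE, n = 4), adjusted p = 0.00901). Oas1a was at 8.302, 20.97, 17.8 and 10.9 CPM against 0.795, 1.17, 1.199 and 1.17 at EZ day 3, 49.6, 21.4, 46.1 and 32.8 against 1.28, 0.738, 0.516 and 0.612 at day 7, and 2.32, 26.7, 2.14 and 3.17 against 0.742, 0.899, 0.6398 and 0.769 at day 14. Its PIZ values were 3.28, 6.18, 5.77 and 2.68 against 0.603, 0.826, 0.694 and 0.501, 1.45, 1.78, 3.47 and 5.52 against 0.603, 0.403, 0.519 and 0.594, and 0.362, 1.67, 0.683 and 0.578 against 0.679, 0.667, 0.22 and 0.392 in the same order of days. It rose at all 3 days in the EZ and at day 3 in the PIZ, and since 22.8% of the 31-base words of its transcripts also occur in other genes, most of all Oas1g, its level is uncertain.

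The IFIT proteins bind foreign RNA, and the 4 genes lie together at chr19:34527932-34632174. All 4 rose in the EZ at each day, and their log2 fold changes at EZ day 7 lay close together, between 3.23 and 3.98. Ifit3 was at 29.6, 69.4, 54.8 and 51.2 CPM in the kainate EZ at day 3 against 7.59, 7.29, 6.23 and 8.53. It was at 181, 109, 229.5 and 84.2 at day 7 against 23.9, 7.34, 5.42 and 9.51, and at 19.5, 96.98, 12.5 and 16.8 at day 14 against 6.92, 7.44, 5.41 and 5.25. Groups were apart at all 3 days, with saline mouse 20 nearest to the kainate range at day 7, and the log2 fold changes were 2.79 ± 0.49 (SE, n = 4), adjusted p = 1.85e-05, then 3.71 ± 0.5 (SE, n = 4), adjusted p = 1.4e-07, then 2.55 ± 0.49 (SE, n = 4), adjusted p = 0.00152. In the PIZ, Ifit3 was at 11.4, 24.6, 28.1 and 22.9 CPM against 6.54, 4.76, 5.59 and 5.33 at day 3, 14.3, 21.6, 27.4 and 48.5 against 7.29, 4.48, 3.48 and 7.83 at day 7, and 6.03, 15.7, 6.66 and 5.78 against 6.88, 4.46, 4.401 and 4.798 at day 14. Ifit3b was at 18.9, 44.4, 36.7 and 33.9 against 5.61, 5.49, 6.41 and 5.75, 118, 75.6, 155 and 54.3 against 18.3, 4.78, 4.902 and 6.73, and 15.4, 60.1, 10.4 and 13.2 against 5.54, 5.79, 4.18 and 4.16 in the EZ at the 3 days. Its PIZ values were 9.46, 17.3, 20.2 and 14.8 against 5.15, 3.98, 3.99 and 5.29, 12, 16.3, 21.2 and 37.01 against 4.44, 3.73, 4.05 and 5.4, and 4.85, 12.1, 5.17 and 4.62 against 5.66, 4.502, 4.29 and 4.01. Ifit3b was called at PIZ day 7 (2.29 ± 0.45 (SE, n = 4), adjusted p = 0.00633) and Ifit3 was not (adjusted p = 0.0122), but 57.8% of the 31-base words of Ifit3b occur in Ifit3, so that reads of these genes cannot be fully separated.

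The ISG15 system comprises the ubiquitin-like protein ISG15, its activating enzyme UBA7, the ligases HERC6 and TRIM25, and USP18, which removes ISG15 and restrains the receptor. All 5 genes rose in the EZ at days 3 and 7. Isg15, at chr4:156283883-156285303, was at 8.42, 23.8, 19.1 and 16.6 CPM in the kainate EZ at day 3 against 1.41, 1.71, 1.57 and 1.51. It was at 39.8, 22.7, 56.97 and 23.2 at day 7 against 3.01, 1.52, 0.722 and 0.895, and at 2.77, 20.2, 2.02 and 2.55 at day 14 against 0.9397, 0.699, 0.689 and 1.18. The groups did not overlap at any of these days, and the log2 fold changes were 3.45 ± 0.57 (SE, n = 4), adjusted p = 8.13e-06, then 4.54 ± 0.59 (SE, n = 4), adjusted p = 8.36e-08, then 2.97 ± 0.6 (SE, n = 4), adjusted p = 0.00208. In the PIZ, Isg15 was at 3.77, 8.97, 7.299 and 6.19 CPM against 0.882, 1.75, 1.08 and 1.46 at day 3, 1.68, 3.46, 4.76 and 12.2 against 1.37, 0.756, 0.675 and 1.04 at day 7, and 0.906, 2.67, 1.07 and 0.945 against 1.27, 1.13, 0.5501 and 0.734 at day 14. Only PIZ day 3 passed the call (2.34 ± 0.57 (SE, n = 4), adjusted p = 0.0027).

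Usp18 was at 6.08, 13.2, 12.9 and 9.56 CPM in the kainate EZ at day 3 against 0.883, 1.22, 1.01 and 1.07, at 36.6, 16.98, 48.3 and 20.99 at day 7 against 3.16, 1.39, 0.413 and 0.848, and at 2.72, 21.9, 2.42 and 2.92 at day 14 against 0.9397, 1.35, 0.591 and 0.679. Its PIZ values were 2.13, 5.74, 4.198 and 3.96 against 0.836, 1.36, 1.04 and 0.8201, 1.86, 2.57, 3.55 and 8.4 against 0.603, 0.403, 0.727 and 0.892, and 0.544, 2.198, 0.939 and 0.683 against 1.22, 0.667, 0.275 and 1.27. It was called in the EZ at the 3 days, at 4.4 ± 0.6 (SE, n = 4), adjusted p = 1.7e-07 on day 7, but in no PIZ comparison (1.98 ± 0.6 (SE, n = 4), adjusted p = 0.014 at day 3). Uba7 was at 11.4, 29.5, 22.4 and 18.1 against 5.43, 6.26, 4.93 and 5.602, 64.7, 15.9, 47.96 and 43.4 against 6.58, 5.04, 4.33 and 4.002, and 7.61, 33.1, 6.18 and 7.85 against 5.64, 5.79, 4.23 and 5.7 in the EZ. In the PIZ, Uba7 was at 9.95, 16.9, 15.2 and 13.1 against 4.78, 4.62, 4.25 and 3.96, 7.38, 7.53, 10.6 and 16.2 against 4.71, 4.38, 4.73 and 3.42, and 3.49, 7.02, 4.995 and 4.94 against 5.34, 4.59, 3.47 and 4.21. It rose in the EZ at days 3 and 7 and in the PIZ at day 3, and the EZ day 14 value (1.36 ± 0.37 (SE, n = 4), adjusted p = 0.0202) did not pass. Trim25 was at 24.4, 46.8, 34.7 and 27.5 against 7.504, 11.2, 8.35 and 8.04, 71.5, 24.4, 53.1 and 59.7 against 8.68, 9.9, 8.31 and 5.84, and 10.2, 39.4, 10.7 and 13.4 against 7.42, 8.99, 6.25 and 6.88 in the EZ. Its PIZ values were 14.2, 17.5, 16.98 and 18.2 against 5.62, 9.19, 7.41 and 6.42, 9.597, 10.01, 14.9 and 18.96 against 7.505, 7.104, 7.84 and 6.14, and 7.29, 9.36, 8.24 and 9.71 against 8.97, 8.67, 6.33 and 7.34. Trim25 was upregulated at all 3 days in the EZ and at day 3 in the PIZ.

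Of 8 antiviral effectors, 7 rose in the EZ at day 3, 8 at day 7 and 7 at day 14, and Cmpk2 accounted for the gap. Cmpk2, a mitochondrial nucleotide kinase, lies next to Rsad2, the gene of the enzyme viperin, at chr12:26492745-26529836. Cmpk2 was at 13.7, 18.9, 16.1 and 22.5 CPM in the kainate EZ at day 3 against 18.2, 18.2, 16.1 and 15.3. It was at 39.3, 28.7, 54.2 and 25.1 at day 7 against 24.4, 19.1, 18.99 and 18.7, and at 21.6, 22.1, 21.02 and 18.2 at day 14 against 18.6, 18.8, 19.4 and 18.4. The values overlapped at day 3 and at day 14, and at day 7 the lowest kainate library stood just above saline mouse 20, with a log2 fold change of 0.86 ± 0.15 (SE, n = 4), adjusted p = 7.79e-06. In the PIZ, Cmpk2 was at 15.97, 23.4, 20.9 and 19.02 CPM against 18.1, 16.1, 18.2 and 18.5 at day 3, 22.7, 21.4, 24.5 and 30.4 against 19.01, 19.6, 20.7 and 18.8 at day 7, and 21.02, 18.7, 21.1 and 20.01 against 18.8, 17.4, 19.9 and 19.9 at day 14. By contrast Rsad2 was at 43.6, 14.6, 48.04 and 26.7 CPM in the EZ at day 7 against 3.67, 2.48, 1.65 and 1.55, with a log2 fold change of 3.83 ± 0.57 (SE, n = 4), adjusted p = 6.79e-07, and it was also called at days 3 and 14. Over the saline libraries Cmpk2 was at 4.33 CPM per kilobase, rank 4 of the 45 genes, and Rsad2 at 0.40, rank 31.

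Bst2, or tetherin, which holds budding virions at the cell surface, was at 28.4, 62.9, 55.6 and 29.5 CPM in the kainate EZ at day 3 against 3.35, 3.83, 3.83 and 3.31. It was at 139, 66.8, 107 and 78.7 at day 7 against 6.84, 3.95, 3.35 and 2.92, and at 6.91, 62.99, 5.34 and 9.11 at day 14 against 4.35, 2.85, 2.56 and 3.03. The groups were apart at all 3 days, and the log2 fold change reached 4.52 ± 0.54 (SE, n = 4), adjusted p = 3.53e-08 at day 7. In the PIZ, Bst2 was at 11.5, 20.9, 16.4 and 12.6 CPM against 1.76, 2.38, 2.47 and 2.19 at day 3, 5.16, 11.8, 11.4 and 16.5 against 3.01, 1.56, 2.597 and 2.92 at day 7, and 3.44, 9.41, 2.05 and 2.52 against 3.31, 2.42, 2.09 and 1.86 at day 14, with day 3 called. Mx1 and Mx2 encode dynamin-like GTPases that block viruses, and most laboratory strains, C57BL/6 among them, carry a defective Mx1 gene. Mx1 had a log2 fold change of 5.4 ± 0.72 (SE, n = 4) at EZ day 7 and Mx2 of 3.47 ± 0.49 (SE, n = 4).

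The ADP-ribosyltransferases Parp9, Parp12 and Parp14 and the ubiquitin ligase Dtx3l, the partner of PARP9, rose in the EZ at days 3 and 7 and in the PIZ at day 3. Parp14, Dtx3l and Parp9 lie together at chr16:35653231-35792980. Parp12 was at 19.9, 42.05, 33.1 and 26.6 CPM against 8.65, 12.1, 9.91 and 10.5 at EZ day 3, 63.8, 30.3, 60.1 and 47.2 against 12.96, 10.2, 9.19 and 7.72 at day 7, and 13.3, 35.2, 11.8 and 14.8 against 10.3, 9.54, 10.1 and 10.2 at day 14. Its PIZ values were 16.8, 18.7, 16.7 and 18.3 against 8.54, 9.53, 8.54 and 8.11, 12.6, 11.6, 16.6 and 21.4 against 9.697, 8.77, 7.22 and 7.38, and 9.198, 12.3, 9.01 and 10.4 against 8.47, 10.2, 9.79 and 9.498. At PIZ day 3 the 4 kainate libraries of Parp12 lay close together and above all saline libraries. Dtx3l was at 13.01, 24.9, 21.9 and 18.2 against 6.97, 8.24, 7.52 and 7.89, 44.2, 16.7, 35.4 and 30.6 against 7.76, 6.904, 7.33 and 6.54, and 8.62, 24.1, 7.25 and 7.23 against 6.83, 5.54, 4.82 and 5.84 in the EZ. In the PIZ, Dtx3l was at 12.3, 14.6, 14.6 and 11.5 against 6.82, 6.51, 5.81 and 6.61, 9.37, 7.72, 10.2 and 13.2 against 6.3, 6.55, 6.18 and 5.89, and 5.94, 8.31, 5.98 and 6.93 against 6.07, 5.04, 5.28 and 5.92. Log2 fold changes at EZ day 7 were 2.33 ± 0.25 (SE, n = 4), adjusted p = 1.61e-08 for Parp12 and 2.15 ± 0.26 (SE, n = 4), adjusted p = 3.53e-08 for Dtx3l.

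Among 9 other induced genes, all rose in the EZ at days 3 and 7. Lgals3bp, the gene of a secreted galectin-3-binding glycoprotein, was at 138, 253, 216 and 136 CPM in the kainate EZ at day 3 against 17.5, 35.3, 20.8 and 22.9. It was at 761, 311, 472 and 436 at day 7 against 25.6, 18.5, 18.5 and 12.1, and at 47.4, 424, 30.9 and 72.5 at day 14 against 19.5, 20.8, 11.6 and 15.2. Kainate and saline were apart at all 3 days, with log2 fold changes of 2.95 ± 0.49 (SE, n = 4), adjusted p = 9.93e-06, then 4.73 ± 0.54 (SE, n = 4), adjusted p = 2.39e-08, then 3.1 ± 0.5 (SE, n = 4), adjusted p = 0.000444. In the PIZ, Lgals3bp was at 75.6, 115, 123 and 62.1 CPM against 12.2, 11.4, 10.2 and 9.11 at day 3, 37.4, 54.7, 94.3 and 96.1 against 12.2, 9.37, 8.57 and 10.3 at day 7, and 8.7, 32.1, 11.7 and 14.2 against 11.6, 10.6, 9.52 and 12.2 at day 14. It was called at PIZ days 3 and 7, at 3.12 ± 0.51 (SE, n = 4), adjusted p = 2.73e-05, and 2.8 ± 0.5 (SE, n = 4), adjusted p = 0.00255.

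Ifi27 and Ifi27l2a, small mitochondrial or membrane proteins, are neighbours at chr12:103392254-103409950. Ifi27 was at 49.4, 72.9, 66.7 and 49.5 CPM against 21.9, 26.9, 22.8 and 21.4 at EZ day 3, 104, 63.8, 60.9 and 84.2 against 32.4, 21.3, 20.7 and 20.4 at day 7, and 35.4, 73.5, 26.3 and 29.3 against 23.9, 21.2, 19.8 and 21.2 at day 14. Its PIZ values were 41.9, 49.3, 53.7 and 37.5 against 31.1, 22.8, 21.02 and 19.6, 41.6, 37.8, 49.4 and 51.99 against 23.6, 18.2, 14.5 and 23.8, and 22.4, 31.3, 20.2 and 21.1 against 17.6, 19.2, 18.1 and 35.1. Ifi27 started high and moved by 1.72 ± 0.24 (SE, n = 4) at EZ day 7 on the log2 scale, whereas Ifi27l2a started at 0.523 CPM over the saline libraries and moved by 6.57 ± 0.78 (SE, n = 4). Ifi27l2a was also the gene with the highest log2 fold change at PIZ day 3, 6.1 ± 0.86 (SE, n = 4), adjusted p = 4.36e-06, from 0.0928, 0.437, 0.217 and 0.182 CPM in saline to 12.6, 22.4, 22.1 and 7.67 in kainate. It rose further on the PIZ than on the EZ at day 3 in these values, but the difference between the sides (-1.67 ± 1.16 (SE), adjusted p = 0.448) did not pass the test.

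Of the remaining members, Epsti1 was at 24.4, 6.68, 12.9 and 13.8 CPM in the kainate EZ at day 7 against 0.919, 0.738, 0.826 and 0.565 in saline, and Ifi44 at 21.7, 17.6, 39.5 and 15.5 against 2.09, 1.303, 0.671 and 0.848. Trim30a, a ubiquitin ligase of the TRIM family, had log2 fold changes of 3.95 ± 0.51 (SE, n = 4) at EZ day 7 and 2.64 ± 0.5 (SE, n = 4) at PIZ day 3, and 21.1% of its 31-base words occur in other genes. Rtp4, a chaperone of membrane receptors, had 3.68 ± 0.47 (SE, n = 4) and 1.76 ± 0.46 (SE, n = 4) in these comparisons, and 26.1% of its words occur in Gm45338, so that the levels of Trim30a and Rtp4 are uncertain. Xaf1, which promotes apoptosis, had 2.97 ± 0.38 (SE, n = 4) and 1.54 ± 0.37 (SE, n = 4). Sp100, a component of nuclear bodies, and Samd9l, which limits translation, were called at EZ day 7 (2.97 ± 0.36 (SE, n = 4) and 2.83 ± 0.38 (SE, n = 4)) but not at PIZ day 3 (1.01 ± 0.35 (SE, n = 4), adjusted p = 0.0309 for Sp100 and 0.66 ± 0.37 (SE, n = 4), adjusted p = 0.195 for Samd9l). Tor3a, of the torsin ATPase family, Ifi35 and the ISG15 ligase Herc6 had 3.27 ± 0.32 (SE, n = 4), 2.91 ± 0.38 (SE, n = 4) and 2.66 ± 0.35 (SE, n = 4) at EZ day 7.

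**Figure D3:**
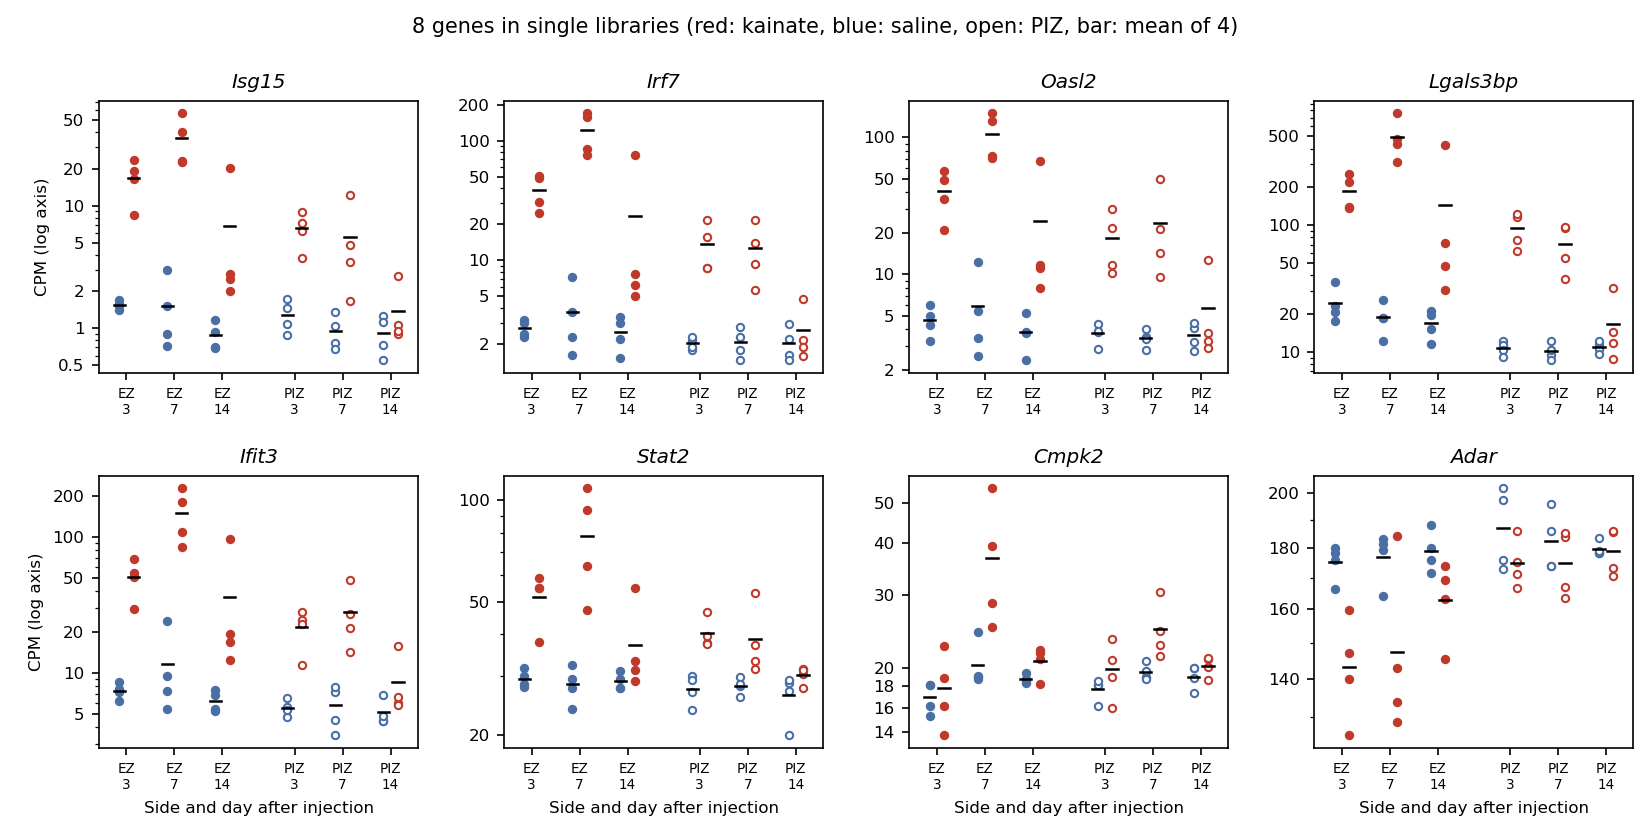
Points are single libraries of 8 genes, in TMM-scaled CPM on a log axis against side and day, red for kainate and blue for saline, filled for the EZ and open for the PIZ, and bars are means of 4 libraries. Isg15, Irf7, Oasl2, Lgals3bp and Ifit3 lie above saline in all kainate EZ libraries, whereas Stat2 lies above saline in the kainate EZ at days 3 and 7 by a smaller factor, Cmpk2 at day 7 only, and Adar lies at or below saline in most kainate EZ libraries.

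The 45 genes were then compared with each other. At EZ day 7 the log2 fold change was highest for Oas3 (6.94), Ifi27l2a (6.57), Zbp1 (5.78), Oasl1 (5.66), Oas1a (5.57), Mx1 (5.40) and Irf7 (5.04), and it was lowest for Adar (-0.26), Cmpk2 (0.86), Stat2 (1.46), Irf1 (1.63) and Ifi27 (1.72). With standard errors between 0.61 and 0.99, the order among the first 7 is not resolved by their spread. Genes with little transcript in saline headed the order, as Oas3, Zbp1, Mx1, Oas1a and Oasl1 were the 5 genes lowest in saline per length, at 0.00833 to 0.101 CPM per kilobase. Adar, Ifi27, Stat2 and Cmpk2 were the 4 highest in saline, at 22.1 to 4.33 CPM per kilobase, and all 4 were among the 5 lowest fold changes. The saline level enters both quantities, so this order is a description only. Lgals3bp departed from it, being rank 5 of 45 in saline and rank 8 in fold change.

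Over the days, 45 of 45 genes had a higher log2 fold change in the EZ at day 7 than at day 3, and 44 had a lower one at day 14 than at day 7. The tests of these differences between days called 0 of 45 genes in edgeR. For day 7 minus day 3 in the EZ, 18 genes were higher at an unadjusted p under 0.05, where 7.95% of all genes were, with a median difference of 1.03 on the log2 scale, and DESeq2 called 0. For day 14 minus day 7 in the EZ, 31 genes were lower at an unadjusted p under 0.05, where 18.6% of all genes were, with a median of -1.44, and DESeq2 called 4. Over all genes 0.112% were called higher and 0.0327% lower at day 7 than at day 3, and 0.15% lower and 0.122% higher at day 14 than at day 7. Without kainate mouse 27 the edgeR count of the latter was 42 and its median -2.62, without kainate mouse 23 it was 11 and without kainate mouse 26 it was 1. In the PIZ the effect was lower at day 7 than at day 3 for 30 genes and lower at day 14 than at day 7 for 44, with 0 called in either and 1 and 19 lower at an unadjusted p under 0.05, where 5.47% and 2.15% of all genes were, and DESeq2 called 0 in both. The comparisons at successive days share the day 7 groups.

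Mice of a group differed in the level of the whole list. As a description, the mean over the 45 genes of log2 CPM minus the mean of the 24 saline libraries was taken in each library. In the EZ it was 2.10, 3.19, 2.86 and 2.59 at day 3, 4.22, 3.01, 4.19 and 3.59 on day 7, and 0.94, 3.41, 0.69 and 1.12 at day 14. In the saline EZ it ran from -0.28 to 0.89 and in the saline PIZ from -0.42 to 0.10. The value of 0.89 was that of saline mouse 20 at day 7, in which 41 of the 45 genes lay above the other 3 saline libraries. In the kainate PIZ it was 1.24, 2.05, 1.88 and 1.59 at day 3, 0.71, 0.97, 1.53 and 2.13 on day 7, and -0.18, 0.82, -0.06 and -0.10 at day 14. Mouse 38 had the highest value for 43 of 45 genes at EZ day 3 and mouse 35 for 43 at PIZ day 7. At PIZ day 3 the highest value was split between mice 38, 42 and 44 with 30, 10 and 5 genes, and at EZ day 7 between mice 21 and 26 with 25 and 20, and these splits were not set against those of all genes. Mouse 21 was the lowest for 34 genes at PIZ day 7.

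**Figure D4:**
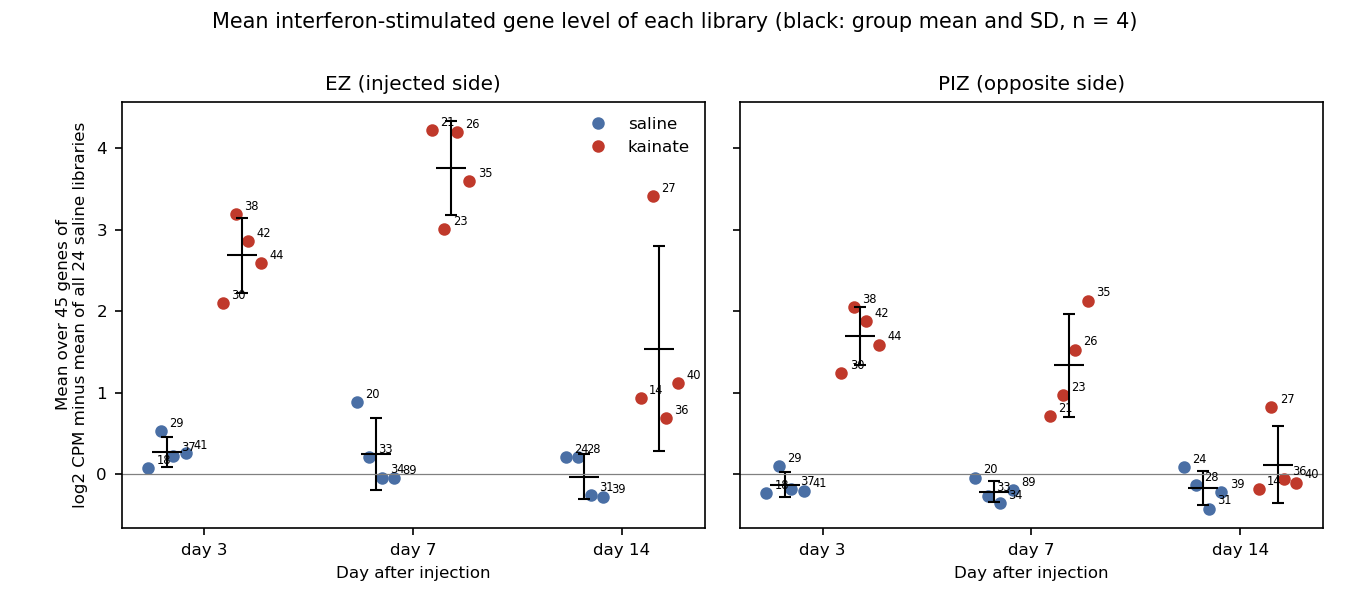
Each point is 1 library, labelled with its mouse number, and shows the mean over the 45 genes of log2 CPM minus the mean of all 24 saline libraries, by day and injection, for the EZ at the left and the PIZ at the right (black bars, group mean and SD, n = 4). Kainate EZ libraries lie between 2.10 and 4.22 at days 3 and 7, and at day 14 mouse 27 lies at 3.41 with the other 3 between 0.69 and 1.12.

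At EZ day 14, mouse 27 was above the other 3 kainate libraries for 44 of the 45 genes. Relative to the saline mean of that day, the median gene was 3.42 higher on the log2 scale in mouse 27 and 0.86 higher in the mean of the other 3. Without mouse 27 none of the 45 genes was called (0 genes) and the median log2 fold change was 0.875 in place of 2.02, and counts were 4 without saline mouse 39 or 31, 11 without saline mouse 24 or 28, and 42, 41 and 39 without kainate mice 36, 14 and 40. Every kainate library exceeded every saline library for 35 of 45 genes, against 4.58% of all genes. Fitted on its own 8 libraries alone, the comparison gave a count of 0 with a median log2 fold change of 1.97 and 2 genes not tested, and with DESeq2 the count was 41. In the PIZ of mouse 27, 40 of the 45 genes also lay above the other 3 kainate libraries, and no gene was without overlap between kainate and saline there (0 of 45, against 3.7% of all genes). The PIZ day 14 count of 0 in edgeR stood beside 0 genes at an unadjusted p under 0.05, where 3.29% of all genes were higher, and 0 in DESeq2, and its median of 0.243 was 0.0509 without mouse 27.

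At PIZ day 7 the 4 genes called were Oasl2, Ifit3b, Ifi27 and Lgals3bp, yet 42 of 45 genes were higher at an unadjusted p under 0.05, where 9.18% of all genes were. Every kainate library exceeded every saline library for 38 of the 45, against 7.63% of all genes. At an adjusted p under 0.05 the count was 22, and DESeq2 called 21. It was 0 without kainate mouse 26 or saline mouse 89, 33, 20 or 34, 1 without kainate mouse 35, and 9 without kainate mouse 21, while the median log2 fold change lay between 1.26 and 1.79 in these fits. At PIZ day 3, 41 of 45 genes were without overlap (17.1% of all genes), and the count of 35 fell to 16 without saline mouse 41. In the EZ, genes without overlap numbered 43 at day 3 and 44 at day 7, against 23.9% and 23.7% of all genes, and the counts of 43 and 44 called genes stayed at these values whichever single mouse was left out.

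To compare the sides, the kainate effect of the PIZ was subtracted from that of the EZ. At day 7 the effect was higher in the EZ for 14 genes, against 7% of all genes, and lower for 0, against 2.88%, with a median difference of 1.82 on the log2 scale over the 45. These were Irf1, Stat2, Ifih1, Dhx58, Eif2ak2, Oasl1, Ifit2, Uba7, Trim25, Parp9, Parp12, Dtx3l, Sp100 and Tor3a. The difference was 4.12 ± 1.15 (SE), adjusted p = 0.00898 for Oasl1, 1.36 ± 0.29 (SE), adjusted p = 0.00219 for Irf1, and 1.0 ± 0.26 (SE), adjusted p = 0.00567 for Stat2. Larger differences that did not pass included Oas3 (3.84 ± 2.29 (SE), adjusted p = 0.206) and Irf7 (2.43 ± 0.83 (SE), adjusted p = 0.0273). Both libraries of a mouse come from the same animal, and with mouse as a replicate block the count rose to 30, against 6.95% of all genes, with Irf7 (adjusted p = 0.0035) and Isg15 (adjusted p = 0.00888) among them. Without mouse 21 the unblocked count was 0, leaving out kainate mouse 26 or 35 gave 8 or 5, leaving out mouse 23 gave 18, and counts were 2, 4, 3 and 2 without saline mice 20, 33, 34 and 89. The median difference was 1.47 without mouse 21 and 1.71 to 2.18 without any 1 of the others.

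At day 3 the sides did not differ by the test, with 0 genes called against 0.0374% of all genes, 1 higher at an unadjusted p under 0.05, where 9.8% of all genes were, and 0 in DESeq2, although 39 of 45 genes had a higher log2 fold change in the EZ (median difference 0.59). With the replicate block 0 were called and 9 were higher at an unadjusted p under 0.05, where 11% of all genes were. At day 14 the test called 0 genes, as it did of all genes (0%), but 39 were higher in the EZ at an unadjusted p under 0.05, where 5.78% of all genes were, and 44 had a positive difference. The median difference was 1.75, and it was 0.73 without kainate mouse 27 and 1.28 in the blocked fit. The blocked fit and DESeq2 also called 0 at day 14, with 39 higher at an unadjusted p under 0.05 in the former, where 4.07% of all genes were. Within single kainate mice the EZ library was higher than the PIZ library for 42 to 44 of the 45 genes at day 3, 43 to 45 at day 7 and 41 to 44 at day 14. The median difference over the genes was 0.86 to 1.18 on the log2 scale at day 3, 1.48 to 3.35 at day 7, and 0.75 to 2.52 at day 14. In single saline mice the EZ library was higher for 36 to 42 genes at day 3, 27 to 42 at day 7 and 21 to 37 at day 14. Their median differences were 0.19 to 0.43, 0.08 to 0.97 and -0.02 to 0.34. These counts in single mice were not set against those of all genes.

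**Figure D5:**
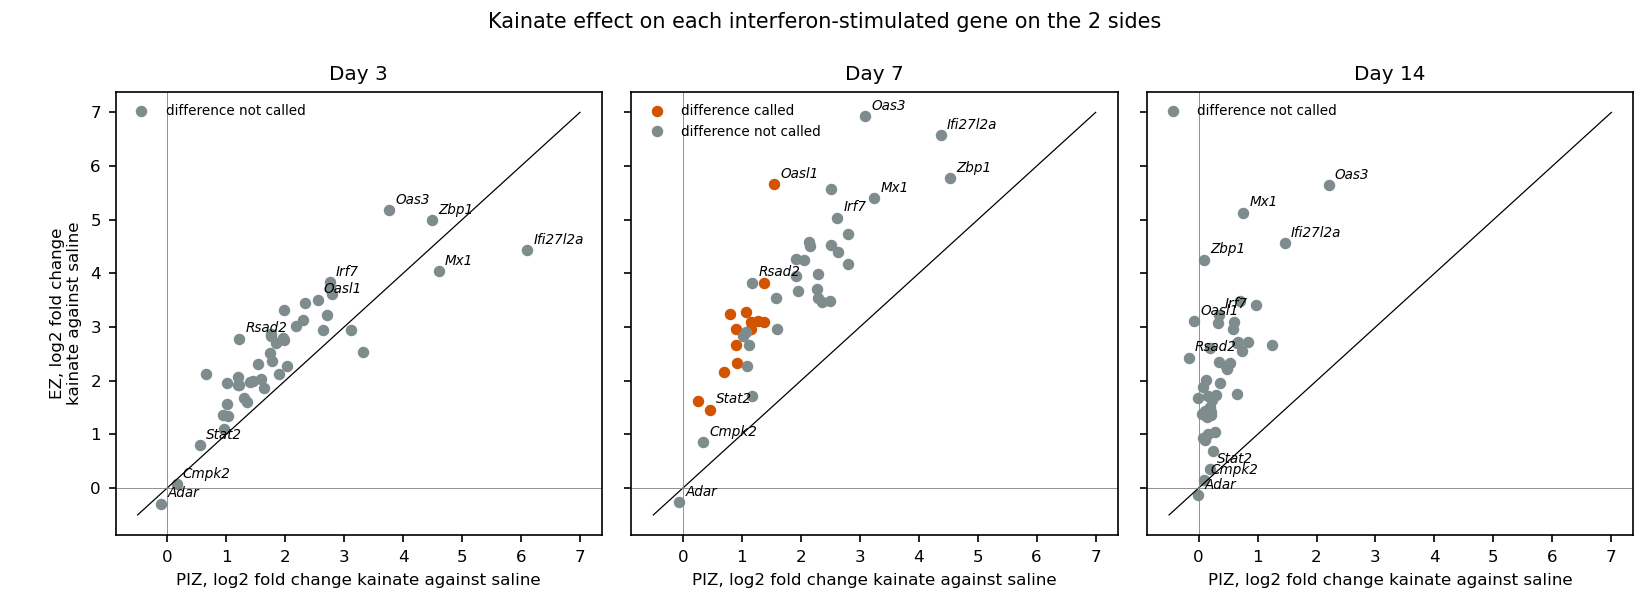
Each point is 1 of the 45 genes, with the log2 fold change of kainate against saline in the PIZ on the horizontal axis and in the EZ on the vertical axis at day 3, 7 and 14, the line marks equal effects, and orange points are the genes whose difference was called. At day 3, 39 genes lie above the line, and at days 7 and 14, 44 do, with 14 called at day 7.

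In saline mice no difference between the sides was called, though most values were positive. The saline EZ exceeded the saline PIZ for 39, 43 and 34 of the 45 genes at the 3 days, with medians of 0.35, 0.50 and 0.09 on the log2 scale. The count was 0 at each day (0 genes in edgeR, against 0.0281%, 0% and 0% of all genes), and 3, 3 and 0 were higher at an unadjusted p under 0.05, where 4.11%, 0.963% and 1.18% of all genes were. With mouse as a replicate block 6, 9 and 0 were higher at that p, where 5.16%, 1.45% and 2.13% of all genes were, and again 0 were called. At day 7 the median over the genes was 0.97 in mouse 20 and 0.35, 0.29 and 0.08 in mice 33, 34 and 89. Single genes reached 2.42 at day 3, Ifi27l2a, and 2.82 at day 7, Zbp1, both named after their values were seen. In the blocked fit over the 3 days together, 42 genes were positive with a median of 0.299, 12 were higher at an unadjusted p under 0.05, against 6.79% of all genes, and 0 were called, against 0.0561%. DESeq2 was not run on this comparison. The needle entered the saline EZ too, so that injection and side cannot be told apart in these mice. Between successive days the saline groups differed in 0 of 45 genes, with 0 at an unadjusted p under 0.05, on either side, and of all genes 0% were called and 0.514% to 2.25% were at an unadjusted p under 0.05 in each single direction, so that the members' counts are near those of all genes.

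Genes of the pathway outside the list were examined in lists of ligands, receptors, sensors, regulators and interferon gamma targets. The interferons themselves were at the limit of detection, and none of 20 ligand genes (0) passed the filter on low counts. Ifnb1, the first type I interferon made by most cells, had 8 counts in all 48 libraries together and at most 2 in a library, Ifng had 9 and at most 2, no Ifna gene had more than 4 in all, and 12 of the 20 had 0. A difference in these genes was therefore not detectable at this depth, and 3 counts correspond to 0.117 to 0.169 CPM. Of 10 receptor and JAK-STAT genes tested, 4 rose in the EZ at day 3, 5 at day 7 and 0 at day 14, and in the PIZ 5, 0 and 0. Among these were Ifnar2, Il10rb and Stat3, joined by Ifngr1 at EZ day 7 and PIZ day 3.

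The receptor chains moved unequally. Ifnar2 rose by 1.63 ± 0.22 (SE, n = 4), adjusted p = 1e-07 on the log2 scale at EZ day 7, whereas Ifnar1 changed by 0.55 ± 0.09 (SE, n = 4), adjusted p = 4.58e-06, below the 1.5-fold limit, and Jak1, a kinase attached to the receptor, by -0.12 ± 0.07 (SE, n = 4), adjusted p = 0.121. Stat3, a factor shared with interleukin signalling, had values of 1.46 ± 0.21 (SE, n = 4) and 1.33 ± 0.21 (SE, n = 4) in the EZ at days 3 and 7.

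Of 14 genes that sense nucleic acid or relay the signal to interferon genes, 12 rose in the EZ at day 3, 13 at day 7 and 4 at day 14, with 7, 0 and 0 in the PIZ. The 4 at EZ day 14 were Rigi, Tlr7, Irf5 and Irf8. Tbk1, a kinase of this relay, was the only one of the 14 not called at EZ day 7 (-0.09 ± 0.08 (SE, n = 4), adjusted p = 0.367), whereas Tlr3 was called (1.53 ± 0.17 (SE, n = 4), adjusted p = 1.9e-08). Of 6 negative regulators Socs1, Socs3 and Ptpn6 rose in the EZ at days 3 and 7, and Socs3 and Ptpn6 also at EZ day 14 and PIZ day 3. Ptpn11 and Pias1 were not called, at -0.01 ± 0.07 (SE, n = 4), adjusted p = 0.87 for Ptpn11 and -0.53 ± 0.09 (SE, n = 4), adjusted p = 2.55e-06 for Pias1 at EZ day 7.

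The interferon gamma targets, guanylate-binding proteins and immunity-related GTPases with Ciita, moved in the same comparisons as the 45 genes. All 9 rose in the EZ at days 3 and 7, 6 at day 14, and 5, 2 and 0 in the PIZ. The 2 at PIZ day 7 were Gbp3 and Igtp. At EZ day 7 their median log2 fold change was 3.17, beside 3.54 for the 45 genes. Irgm1 had values of 3.28 ± 0.35 (SE, n = 4), adjusted p = 1.61e-08 and Gbp3 of 3.32 ± 0.39 (SE, n = 4), adjusted p = 2.97e-08 there. These GTPases are induced by type I interferon as well, so the list does not separate the interferon types.

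Markers of cell types moved in the same libraries. The summed level of 10 microglia markers was 573 to 964 CPM in the saline EZ at day 3, 477 to 519 on day 7 and 439.5 to 461.5 at day 14. In the kainate EZ it was 1368, 2274, 1767 and 1518 at day 3, 6063, 1693, 2393 and 4372 on day 7, and 619, 3097, 544 and 768 at day 14, with mouse 27 again the highest of day 14, and kainate and saline libraries did not overlap at any of the 3 days. In the PIZ it was 1050 to 1281 CPM with kainate and 334 to 460.5 with saline at day 3, 449 to 857 and 348 to 442.5 at day 7, both without overlap, and 388 to 476 and 354 to 405 at day 14, with overlap. Among microglia markers Csf1r had a log2 fold change of 2.66 ± 0.31 (SE, n = 4) at EZ day 7. Saline mouse 20, highest of its group in the interferon-stimulated genes, had 477 CPM of microglia markers, the lowest of the 4 saline EZ libraries of day 7. Mouse 26 had about the same level of the 45 genes as mouse 21 at EZ day 7, 4.19 and 4.22, with 2393 and 6063 CPM of microglia markers. At EZ days 3 and 14 the kainate mice stood in the same order by both levels. Mouse 38 was highest at day 3, at 3.19 and 2274 CPM, and mouse 30 lowest, at 2.10 and 1368 CPM. Saline mouse 29 was highest of its group in both at EZ day 3, at 0.53 and 963.6 CPM. The part of microglia in the 45 genes was not tested.

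Of 7 infiltrating myeloid markers 3 rose in the EZ at days 3 and 7 (Ccr2, Plac8 and Ms4a7), whereas Itga4 and Ly6c2 were not called there. Their summed level was 63.2, 97.3, 87.0 and 34.8 CPM in the kainate EZ at day 3, 98.6, 43.2, 79.1 and 107 on day 7, and 33.3, 93.7, 29.4 and 23.5 at day 14. In the saline EZ libraries it was 30.8 to 41.3 CPM at day 3, a range that holds mouse 44, 29.9 to 39.1 at day 7 and 29.4 to 33.8 at day 14. In the PIZ at day 3 the order was the opposite, 23.2 to 38.2 CPM with kainate and 45.8 to 63.8 with saline, without overlap, and 1 marker, Itga4, fell. Of 8 T and NK cell markers only 2 passed the filter on low counts, and the sum over all 8 was 1.99 to 6.59 CPM in the kainate EZ at day 7 and 0.391 to 0.877 in saline. Of 7 astrocyte markers 3, 5 and 2 rose in the EZ at the 3 days and 1, Aldoc, fell at day 3, and in the PIZ 3 rose at day 3 and 0 at days 7 and 14. Their summed level in the PIZ was 6513 to 7211 CPM with kainate and 2093 to 2459 with saline at day 3, and 2430 to 3429 against 2006 to 2323 at day 7, without overlap on either day. In the EZ it was 6929 to 8040 CPM against 3360 to 5822 at day 3 and 7861 to 10120 against 2191 to 2614 at day 7. Of 4 fibroblast markers 4 rose in the EZ at days 3 and 7. Of 6 endothelium markers 3 rose at EZ days 3 and 7, and of 5 oligodendrocyte markers 2 rose at EZ day 7. Of 5 granule neuron markers 1, Calb1, fell at PIZ day 3. Other summed levels were also apart without overlap where the 45 genes were higher. At EZ day 3 fibroblast markers summed to 55.2 to 272 CPM with kainate and 22.2 to 39.7 with saline. Endothelium markers summed there to 274.6 to 406 and 223.5 to 250.6, and choroid plexus markers to 6.695 to 8.76 and 17.5 to 21.8. At EZ day 7 fibroblast markers summed to 33.15 to 237 and 16.2 to 21.8, and choroid plexus markers to 3.36 to 12.3 and 20.6 to 29.1. At PIZ day 7 granule neuron markers summed to 458 to 802 CPM with kainate and 894 to 1054 with saline, fibroblast markers to 34.5 to 115 and 15.4 to 20.1, and T and NK cell markers to 1.06 to 1.67 and 0.248 to 0.806. At EZ day 14 astrocyte markers summed to 2560 to 8957 CPM with kainate and 2245 to 2479 with saline, and T and NK cell markers to 0.961 to 6.57 and 0.643 to 0.899. All T and NK cell sums include the markers that failed the filter on low counts. At PIZ day 3 CA pyramidal neuron markers summed to 172 to 227 CPM with kainate and 238 to 348 with saline, and choroid plexus markers to 11.1 to 16.9 and 22.8 to 28.9. Of 3 choroid plexus markers tested 1, Kl, fell at EZ days 3 and 7. Kl had a mean log2 CPM of 3.89 and Ttr, the next most abundant of that list, -0.54. The choroid plexus sums are therefore mostly Kl and do not measure choroid plexus content by several markers. The part of these cells in the levels of the 45 genes was not tested.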

How the data were processed

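Dorsal dentate gyrus of both hemispheres of 24 mice was measured as 48 separate libraries, 4 in each of 12 groups of side, injection and day taken from the labels. Per the authors, poly-A stranded paired-end reads were trimmed (fastp 0.20.1), aligned to GRCm39 (HISAT2 2.2.1) and counted per Gencode M28 gene on the reverse strand with multi-mapping reads kept at their primary alignment (featureCounts, Subread 1.6.4). The deposited values are raw integer counts of 55357 genes, of which 98.90% of identifiers matched the annotation used here for names and positions.

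From these counts, genes were filtered with filterByExpr, which left 21390 genes with 99.92% of counts, scaled by TMM, and fitted with edgeR 4.0.16 (R 4.3.3) as 12 group means by the quasi-likelihood test with 36 residual degrees of freedom. The study's own comparison used DESeq2, run here (1.42.0) as an alternative because the quasi-likelihood test was preferred for counts. Benjamini-Hochberg adjustment covered all genes tested, SEs are the log2 fold change divided by the square root of F, and log2 CPM used a prior count of 2. An exact permutation test of 4 against 4 mice cannot go below 0.0286, so single-gene permutation tests were not used. In counts simulated for EZ day 7, 98.2% of 109 genes changed 4-fold and 65.9% of 91 changed 2-fold were called, with 2 of 20733 unchanged genes. The changed genes were drawn from the more abundant ones, and each library was simulated separately without a mouse effect. These rates therefore do not cover genes near the floor in saline, such as Oas3, or shifts that a mouse shares over the list.

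The 45 genes and the other lists were chosen with earlier results of these data known. Genes given in every library, 20 in all, are the 2 with the highest mean log2 CPM in each role group, those with the largest and smallest log2 fold change at EZ day 7, and Isg15, Irf7, Ifit3, Stat2 and Usp18 for their known roles. The EZ and PIZ libraries of a mouse come from the same animal, so that mouse number pairs them. Over all 21390 genes, correlations of their residuals ran from -0.054 to 0.376, with 20 of 24 over 0.1. Over the 45 genes they ran from -0.426 in mouse 35 to 0.746 in mouse 27, and from 0.525 to 0.746 in the kainate mice of day 14. The main fit holds no term for the mouse. Kainate and saline groups share no mouse. SEs include the spread between mice, whereas floors cover counting error only.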

Additional observations from a re-analysis of the deposited data

Results flagged for a closer look

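Single libraries that stood apart from the other 3 of their group were found in 20 of 240 groups of 4 values, over the 20 genes given in every library, by a gap to the nearest library beyond Dixon's 95% critical value. Chance alone gives about 1 such group in 20 for independent groups. The 20 genes share the same libraries and move together, so that 1 mouse can give many flags and the count cannot be set against this rate. Of the 20, 11 were the library of kainate mouse 27 at day 14. In the EZ of this mouse the log2 CPM values were 5.66 for Eif2ak2 (next 3.53), 4.75 for Oas1a (next 1.71), 5.05 for Uba7 (next 2.99), 4.60 for Dtx3l (next 3.12), 4.34 for Isg15 (next 1.52), 6.24 for Irf7 (next 2.96) and 4.46 for Usp18 (next 1.59). In its PIZ they were 3.5 for Eif2ak2 (next 2.77), 3.98 for Ifit3 (next 2.76), 3.61 for Ifit3b (next 2.39) and 1.47 for Isg15 (next 0.21). The summed levels of marker lists stood apart in this mouse too. In its EZ they were 3097 CPM for microglia (544 to 768 in the other 3 kainate mice), 8957 for astrocyte (2560 to 3412), 93.7 for infiltrating myeloid (23.5 to 33.3), 77.7 for fibroblast (17.95 to 24.1), 439.7 for granule neuron (682 to 1075), 71.9 for CA pyramidal neuron (159 to 353) and 1.81 for choroid plexus (13.4 to 26.1), mostly Kl. T and NK cell markers summed to 6.57 CPM there (0.961 to 2.02) and endothelium markers to 308 (198 to 212.8). In its PIZ the astrocyte sum was 3275 CPM (1936 to 2227) and the fibroblast sum 65.7 (20.7 to 32.7). The part of these in the values of the genes was not tested.

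In the saline EZ at day 7, mouse 20 stood high with log2 CPM values of 4.61 for Cmpk2 (next 4.26) and 5.02 for Ifi27 (next 4.42). Stat2 was lowest in the kainate EZ library of mouse 30 at day 3, at 5.25 against 5.78 in the nearest library. Adar was highest in the saline PIZ library of mouse 28 at day 14, at 7.52 against 7.48 in the nearest library. Oas1a was lowest in the saline EZ library of mouse 18 at day 3, at -0.18 against 0.33 in the nearest library. Uba7 was lowest in the saline EZ library of mouse 31 at day 14, at 2.11 against 2.52 in the nearest library. Cmpk2 was lowest in the saline PIZ library of mouse 29 at day 3, at 4.02 against 4.19 in the nearest library. Ifi27 was highest in the saline PIZ library of mouse 39 at day 14, at 5.14 against 4.27 in the nearest library. Oas3 was highest in the saline PIZ library of mouse 34 at day 7, at -2.36 against -2.78 in the nearest library.

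The kainate effect differed between the sides at day 7 for 14 genes by the edgeR test of the difference, EZ minus PIZ on the log2 scale. The values were 1.36 for Irf1, 1.0 for Stat2, 1.81 for Ifih1, 2.44 for Dhx58, 1.72 for Eif2ak2, 4.12 for Oasl1, 2.44 for Ifit2, 1.84 for Uba7, 1.77 for Trim25, 1.95 for Parp9, 1.42 for Parp12, 1.46 for Dtx3l, 2.07 for Sp100 and 2.20 for Tor3a. Without mouse 21 none of these was called (0 genes), with a median difference of 1.47 over the 45 genes in place of 1.82, and with mouse as a replicate block 30 genes were called.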

How the results depend on the processing

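Counts of called genes at EZ days 3 and 7 were within 1.5 times their values under every alternative tried, and of 2357 recomputed values of genes called in the comparisons of kainate with saline, 0 changed sign while 293 lost the call. The count of 34 at EZ day 14 was 20 with at least 10 counts in each library, which left 11 of the 45 untested, and 0 with only the libraries compared, where the median log2 fold change was 1.97 in place of 2.02. The count of 4 at PIZ day 7 was 22 at an adjusted p under 0.05, 7 with scaling by library size only and 21 with DESeq2. The count of 14 for the side difference at day 7 was 29 at an adjusted p under 0.05, 8 without the filter on low counts and 22 with DESeq2. For EZ day 14 minus day 7, 0 became 16 at an adjusted p under 0.05 and 4 with DESeq2. The cause of these shifts was not tested.

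With mouse as a replicate block, which pairs the EZ and PIZ libraries, the count for the side difference at day 7 was 30, and the block changed no count at days 3 and 14. Kainate against saline shares no mouse, so no block was possible there.

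Leaving out each mouse in turn gave 43 to 43 called genes at EZ day 3, 44 to 44 at EZ day 7, 0 to 42 at EZ day 14, 16 to 36 at PIZ day 3, 0 to 9 at PIZ day 7, 0 to 18 for the side difference at day 7, 0 to 42 for EZ day 14 minus day 7 and 0 to 1 for PIZ day 14 minus day 7, with 0 in the others. With scaling by library size only, the median log2 fold change of all genes was 0.159 at EZ day 3 and 0.111 at PIZ day 3, in place of 0.0323 and 0.0164.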
